A study of Mus musculus with 16 samples.

Results

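Zfp genes encode zinc finger proteins, and in primary mouse vascular smooth muscle cells the RNA of 126 of them carried at least 1 peak of RNA recovered with THOC5. A gene was counted if its symbol is Zfp followed by digits and the authors' annotation put a peak of any of the 8 lists in its coding or non-coding exons, introns, untranslated regions (UTRs) or transcription end. RefSeq holds 372 mouse genes of that name form, so 33.9% of them were counted and 246 had no peak inside them. Of all 21900 protein-coding genes in RefSeq 3947 (18.0%) had a peak, and the difference between these shares was not tested. The 126 genes, all protein-coding, are 126 of 4051 genes with a peak in any list, and they hold 440 of the 28000 peaks inside genes. The genes were chosen by the presence of a peak, so the numbers of peaks and of lists below are a description with no test. Tests are given for the place of a peak within its gene and for its score. Peaks per gene entered the adjustment of p-values and are otherwise a description. The Zfp share of genes with a peak is made from the presence of peaks too, so it likewise entered the adjustment and is otherwise a description.

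The lists come from THOC5 immunoprecipitates (RIP-seq, in which a protein is pulled down and the RNA held by it is sequenced) of 4 conditions with 2 lists each. THOC5 OE cells overexpressed THOC5 in osteogenic medium, GFP OE cells overexpressed GFP in osteogenic medium with the genotype given as WT, Pi cells were WT cells in osteogenic medium, and Ctrl cells were WT cells in growth medium. The RNA was depleted of rRNA. The labels do not state the vector. Nor do they state that the 2 lists of a condition come from separate cultures, so each p-value measures only the spread between these samples. There are 4618 and 4240 peaks in the THOC5 OE lists, 3711 and 2572 in GFP OE, 2666 and 3793 in Pi, and 2603 and 4795 in Ctrl. They give neither sequencing depth nor RNA level. A gene without a peak may be unbound, little expressed or below the peak threshold, which cannot be told apart. Thoc5 itself held 1 peak, in Ctrl replicate 2 at percentile 3.73 of that list, and the lists do not measure the transgene. Of 9 smooth muscle markers 5 had a peak, with Mylk (myosin light chain kinase) in all 8 lists, Acta2 in Pi replicate 2 and both Ctrl lists, and none in Myh11, Cnn1, Myocd or Des. A peak was seen in 0 of 5 endothelial, 1 of 4 fibroblast (Pdgfra, in Pi replicate 1) and 0 of 4 leukocyte markers.

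THOC5 belongs to the THO complex, which is loaded onto RNA during transcription and, as part of TREX, hands spliced mRNA to the export receptor. Most Zfp proteins bind DNA through arrays of C2H2 fingers. Many carry a KRAB domain, which recruits Trim28 and the H3K9 methyltransferase Setdb1 to silence retroelements and imprinted loci. In a typical KRAB zinc finger gene the short first exons encode the KRAB domain and the long last exon encodes the whole finger array. Such genes lie in clusters of similar copies that arose by duplication. Other Zfp genes are long and have many exons, and their products are found in chromatin complexes, at telomeres or on RNA.

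THOC5 peaks in Zfp genes lay in the last coding exon more often than peaks in other genes. The last coding exon is here the class exon in the deposited annotation where its number equals the number of exons of the transcript, with the 3' UTR as a class of its own. In THOC5 OE 29.1% and 20.9% of the peaks in Zfp genes lay there, in GFP OE 31.1% and 26.5%, in Pi 36.6% and 32.8%, and in Ctrl 18.4% and 30.3%. In the 3925 other genes with a peak the share was 1.69% and 1.79% in the THOC5 OE lists, 1.58% and 1.93% in GFP OE, 3.64% and 4.02% in Pi, and 3.09% and 3.03% in Ctrl. The lowest share in Zfp genes, that of Ctrl replicate 1, was above the highest share in other genes, that of Pi replicate 2. The mean was 28.2 ± 6.07% in Zfp genes and 2.59 ± 0.963% in other genes (SD, n = 8 lists), a difference of 25.6 percentage points that had the same sign in 8 of 8 lists. The two-sided exact sign-flip permutation test over lists gave p = 0.0078125, the smallest 8 lists allow, and 0.0104 after Benjamini-Hochberg adjustment over the 4 comparisons of Zfp genes with other genes. The size of the difference moved with the peaks kept, to 13.3 percentage points with peaks at or above the median score of each list and 17.9 with lists cut to equal length (exact sign-flip permutation test, adjusted p = 0.0104 in both).

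**Figure D1:**
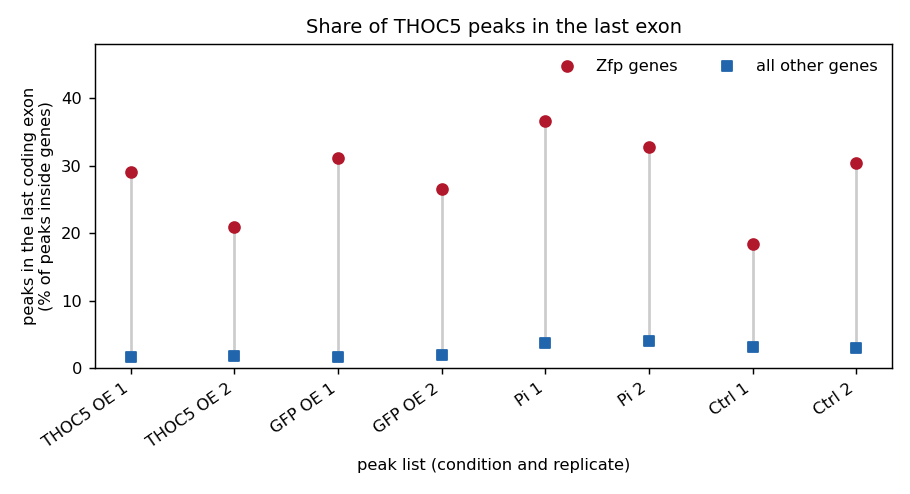
Share of THOC5 peaks in the last coding exon, as a percentage of the peaks inside genes (y axis), in each of the 8 lists (x axis), for Zfp genes (red circles) and all other genes (blue squares), with a grey line joining the 2 values of a list. The Zfp values lie between 18.4% and 36.6% and the values of other genes between 1.58% and 4.02%.

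Counted as peaks, 126 of 440 (28.6%) lay in the last coding exon of 77 Zfp genes, and in 58 of these genes no peak lay anywhere else. Most of the 58 held only 1 peak over all lists, so for them it could not be otherwise. Of the 269 peaks in coding exons 126 (46.8%) were in the last one. There were 16 and 9 such peaks in the THOC5 OE lists, 19 and 9 in GFP OE, 15 and 19 in Pi, and 9 and 30 in Ctrl, so each share rests on few peaks. For the 105 last-exon peaks whose gene has a strand in the tables used, the centre lay a median of 2183 bp before the 3' end of the gene, with quartiles of 1565 and 3340 bp. The lowest value was 587 bp and the highest 32818 bp, so the last exon of a transcript was not always near the end of the gene. The remaining peaks in Zfp genes comprised 143 in other coding exons, 121 (27.5%) in introns, 39 (8.86%) in 3' UTRs, 9 in non-coding exons, 1 in a 5' UTR and 1 at a transcription end. Of the intronic peaks 14 (11.6%) lay on an annotated repeat, against 2192 of 16254 intronic peaks (13.5%) in other genes.

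Peaks in Zfp genes also lay in exons of any kind more often than peaks in other genes. Peaks in exons, UTRs, transcription ends or non-coding exons made up 67.3% and 67.4% of peaks in Zfp genes in the THOC5 OE lists, 73.8% and 61.8% in GFP OE, 80.5% and 79.3% in Pi, and 77.6% and 70.7% in Ctrl. Their mean was 72.3 ± 6.64% in Zfp genes and 41.0 ± 3.84% in other genes (SD, n = 8 lists), higher in 8 of 8 lists (exact sign-flip permutation test, p = 0.0078125, adjusted 0.0104). As a description, a Zfp gene with a peak held 1.48 ± 0.198 peaks per list and another gene with a peak 2.20 ± 0.353 (SD, n = 8 lists), a difference of -0.714 that was negative in 8 of 8 lists. The authors' score of a peak, ranked within its list as a percentile from low to high, had a mean list median of 47.1 ± 6.47 in Zfp genes and 50.7 ± 0.217 in other genes. This difference of -3.59 was positive in 2 of 8 lists, both of THOC5 OE, and did not pass the exact sign-flip permutation test (p = 0.156).

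The Zfp genes were divided into 2 groups by number of exons, with a cut at 6 chosen after the values were seen and given no test. The 79 genes with at most 6 exons, with a median length of 15812 bp, held 169 peaks, of which 113 (66.9%) lay in the last coding exon and 9 in introns. The 47 genes with more exons, with a median length of 31078 bp, held 271 peaks, of which 13 (4.80%) lay in the last coding exon and 112 (41.3%) in introns. The peaks of genes of few exons had a median score percentile of 29.8, and 43 of the 79 genes had peaks in 1 list. For genes of more exons the median percentile was 56.7, and 17 of the 47 had peaks in 1 list. Both groups were mixed. For example, Zfp532, with 6 exons, held 1 of its 8 peaks in the last coding exon, and Zfp606, with 8 exons, held its only peak there. The difference from other genes was also present among transcripts of few exons. Among peaks on transcripts of 2 to 6 exons, 113 of 171 (66.1%) in Zfp genes lay in the last coding exon. In other genes it was 200 of 914 (21.9%). The mean difference over lists was 47.8 percentage points, given with no p-value since the cut was chosen after seeing the data. The length of the last exon was not available, and its part and that of the number of exons in the difference were not tested.

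The score of a peak varied with its place. Peaks in the last coding exon had a median percentile of 28.2, with list medians from 21.9 to 41.5, and 8 of 126 (6.35%) lay above percentile 75 of their list. Peaks in other coding exons, which lay in 35 genes, had a median of 70.9, with list medians from 64.9 to 80.9, and 60 of 143 (42.0%) lay above percentile 75. The ranges of list medians of these 2 places did not overlap. A site that recurs enters once per list, as the exon 3 site of Zfp532 does in 7 lists, and the places are held by different genes. Place and gene therefore cannot be told apart here. Intronic peaks had a median of 40.0 in 26 genes, and peaks in 3' UTRs a median of 48.8 in 25 genes, with list medians from 17.5 to 89.0.

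**Figure D2:**
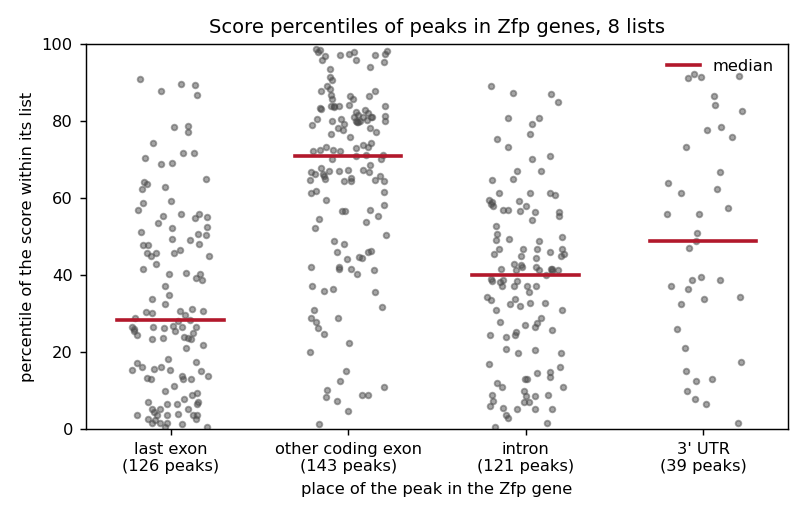
Percentile of the authors' score within its list (y axis, from 0 for the lowest to 100 for the highest) for the peaks in Zfp genes in last coding exons, other coding exons, introns and 3' UTRs (x axis), all 8 lists together. Each point is a peak and the red line is the median, at 28.2, 70.9, 40.0 and 48.8 in that order.

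The highest scores were those of peaks in inner coding exons of long genes. Zfp532, whose human counterpart belongs to a chromatin complex with ZMYND8, held the highest score of all Zfp genes in 7 of 8 lists. Its percentiles were 97.8 and 98.3 in the THOC5 OE lists, 97.2 and 97.4 in GFP OE, 98.1 in Pi replicate 1, and 98.0 and 98.8 in Ctrl. In each of these lists the peak lay at the same place in exon 3 of 6, on chromosome 18, and Pi replicate 2 had no peak in Zfp532. There the highest score was that of Zfp715, at percentile 89.3 in exon 5 of 5 (chr7:43298856-43299488, mm10). Zfp638, whose human counterpart NP220 binds cytidine-rich DNA and brings the HUSH silencing complex to unintegrated retroviral DNA, reached percentiles of 96.9 and 97.3 in the THOC5 OE lists, 97.2 in GFP OE replicate 1, 49.3 in Pi replicate 1, and 95.2 and 95.8 in Ctrl. Its strong peak lay in exon 2 of 25 (chr6:83929048-83929885) in the 5 lists of THOC5 OE, GFP OE and Ctrl that held it. In Pi replicate 1 the peak lay elsewhere in the gene, and GFP OE replicate 2 and Pi replicate 2 had none. Zfp106, which encodes an RNA-binding protein needed by motor neurons in mice, held a peak in THOC5 OE replicate 2 at percentile 94.1 and in Ctrl replicate 2 at percentile 93.5.

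The number of lists in which a Zfp gene held a peak ran from 1 to 8. Of the 126 genes 60 (47.6%) had peaks in 1 list, against 37.2% of all genes with a peak. Peaks in all 8 lists were seen in 2 (1.59%), against 9.87% of all genes. In between, 27 genes had peaks in 2 lists, 11 in 3, 10 in 4, 4 in 5, 7 in 6 and 5 in 7. Peaks in all 4 conditions, in at least 1 list of each, were seen for 15 genes. The share of all genes with this property is not given here, so nothing is read from that count. The peaks of a gene that overlapped by at least 1 base were joined into 229 sites, of which 100, in 53 genes, were seen in at least 2 lists and 1 was seen in all 8.

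Zfp236 and Zfp827 were the genes with peaks in all 8 lists. Zfp236 (chromosome 18, 30 exons) held 9 and 6 peaks in the THOC5 OE lists, 7 and 6 in GFP OE, 4 and 8 in Pi, and 7 and 12 in Ctrl, or 59 in all, the most of any Zfp gene. Of these, 38 lay in introns, 4 in the 3' UTR and 0 in the last coding exon, and its sites at intron 4, intron 11, intron 14, exon 21 and exon 25 each recurred in 4 to 7 lists. Zfp827, whose human counterpart brings the NuRD complex to telomeres that are lengthened without telomerase, held 4 and 2 peaks in the THOC5 OE lists, 3 and 1 in GFP OE, 1 and 1 in Pi, and 2 and 6 in Ctrl. Its site in exon 2 of 15 (chr8:79060480-79061147) was the one seen in all 8 lists, with percentiles from 65.6 to 86.5.

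Of the genes with peaks in 7 lists, Zfp318 and Zfp507 held theirs mainly in inner coding exons. Zfp318, which in mouse B cells lets transcription run through to the IgD exons, held 4 and 2 peaks in the THOC5 OE lists, 2 and 1 in GFP OE, 0 and 3 in Pi, and 3 and 1 in Ctrl. Its site in exon 4 of 10 (chr17:46398877-46399964) was present in each of those 7 lists, at percentiles from 72.1 to 81.0. Zfp507 held 1 and 0 peaks in the THOC5 OE lists, 1 and 1 in GFP OE, 2 and 2 in Pi, and 2 and 1 in Ctrl, with a site in exon 3 of 7 (chr7:35793741-35795379) in 6 lists. Zfp462 and Zfp407 differed from these in that introns held most or many of their peaks. Zfp462, which in mouse embryonic stem cells brings H3K9 methyltransferases to chromatin, held 4 and 4 peaks in the THOC5 OE lists, 3 and 3 in GFP OE, 1 and 1 in Pi, and 0 and 4 in Ctrl. Its site at intron 8 of 12 (chr4:55050314-55051482) recurred in 7 lists, annotated to exon 9 in Pi replicate 2, and a stronger site in the 3' UTR (chr4:55080859-55081453, percentiles 82.6 to 92.2) was seen in the 4 lists of THOC5 OE and GFP OE and in Ctrl replicate 2 but in neither Pi list. Zfp407, which in mouse fat cells supports PPARγ target genes, held 3 and 4 peaks in the THOC5 OE lists, 3 and 4 in GFP OE, 0 and 3 in Pi, and 2 and 5 in Ctrl, of which 20 of 24 lay in introns.

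Among genes with peaks in 6 lists, Zfp112 and Zfp27 held each of their peaks in the last coding exon, and Zfp772 held 4 of 6 there and the other 2 in the 3' UTR. All 8 peaks of Zfp112 lay in exon 5 of 5, at percentiles from 21.1 to 30.7, with 2 and 1 in the THOC5 OE lists, 1 and 0 in GFP OE, 1 and 2 in Pi, and 0 and 1 in Ctrl. The 6 peaks of Zfp27 lay in exon 5 of 5, at percentiles from 48.2 to 62.8, with 0 and 1 in the THOC5 OE lists, 1 and 1 in GFP OE, 1 and 1 in Pi, and 0 and 1 in Ctrl. Ctrl replicate 1, a short list, lacked a peak in all 3 of these genes. The other genes with peaks in 6 lists were Zfp609, Zfp608, Zfp638 and Zfp458. Zfp609, a partner of the cohesin loader Nipbl in mouse neural progenitors, held 1 peak in each of its lists, in exon 5 of 10 (chr9:65703720-65704278, percentiles 86.6 to 89.1) in both THOC5 OE lists and Pi replicate 2. It lay in intron 3 in GFP OE replicate 1 and Ctrl replicate 2, and in exon 2 in Ctrl replicate 1. Zfp608, a close paralog of Zfp609, held 1 and 0 peaks in the THOC5 OE lists, 1 and 1 in GFP OE, 2 and 1 in Pi, and 0 and 1 in Ctrl, of which 6 of 7 lay in exons. The 7 peaks of Zfp458 were placed in non-coding exons of a transcript, and its exon 4 held peaks in Pi replicate 1 and Ctrl replicate 1.

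**Figure D3:**
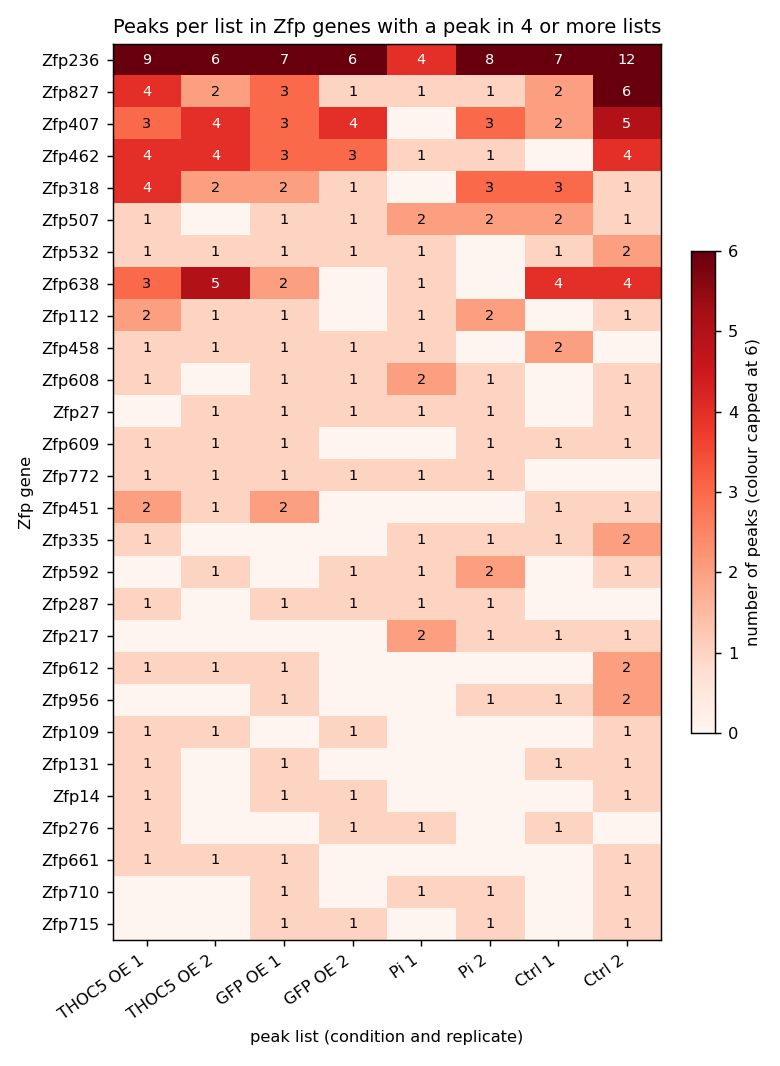
Number of peaks (colour, capped at 6, with the number printed in the cell) in each of the 8 lists (columns, by condition and replicate) for the 28 Zfp genes with a peak in at least 4 lists (one gene per line). Zfp236 holds 4 to 12 peaks per list, while Zfp112, Zfp27 and Zfp772 hold 0 to 2.

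Of 19 Zfp genes with a well known role, 10 had a peak, beside the 33.9% of all Zfp genes. Zfp451, a SUMO ligase in human cells, held 2 and 1 peaks in the THOC5 OE lists, 2 and 0 in GFP OE, 0 and 0 in Pi, and 1 and 1 in Ctrl, with a site in exon 10 of 14 (chr1:33776597-33777589) in each of those 5 lists at percentiles from 64.4 to 83.8. Zfp592, which like Zfp532 is found in the ZMYND8 complex in human cells, held 0 and 1 peaks in the THOC5 OE lists, 0 and 1 in GFP OE, 1 and 2 in Pi, and 0 and 1 in Ctrl, at percentiles from 68.5 to 82.2. Zfp687, the further zinc finger protein of that complex, held 1 peak, in Pi replicate 2 at percentile 83.9. Genes of this list seen in 1 list also included Zfp281, a regulator of pluripotency genes in mouse embryonic stem cells (Ctrl replicate 2, last exon, percentile 89.7), Zfp568, a KRAB repressor of a placental Igf2 promoter in mice (Pi replicate 1, percentile 71.6), and Zfp423, which commits preadipocytes in mice (THOC5 OE replicate 2, 2 peaks, percentile 12.5 at best). The 9 without a peak inside were Zfp36, Zfp207, Zfp598, Zfp91, Zfp521, Zfp148, Zfp57, Zfp809 and Zfp469.

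The corepressor machinery that KRAB zinc finger proteins recruit had peaks in 9 of 18 listed genes, beside 18.0% of all protein-coding genes, and 0 of the 9 had peaks in all 8 lists, beside 9.87% of genes with a peak. Smarcad1, a remodeller that binds Trim28, held 1 and 4 peaks in the THOC5 OE lists, 3 and 2 in GFP OE, 0 and 2 in Pi, and 1 and 1 in Ctrl. Setdb1 held 0 and 1 peaks in the THOC5 OE lists, 1 and 0 in GFP OE, 0 and 0 in Pi, and 0 and 2 in Ctrl. Tasor, of the HUSH complex, and Morc2a, which works with it, had peaks in 6 lists each, and Trim28 was among the 9 genes without a peak.

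By position, 39 of the 126 genes lay on chromosome 7, which holds 91 of the 372 Zfp genes of RefSeq. Runs of at least 5 Zfp genes with gaps of at most 250000 bp numbered 16 and held 147 genes, of which 50 had a peak, beside 33.9% of all Zfp genes. The share with a peak differed between runs, each of few genes, and these differences were not tested. On chromosome 7 a run at 29768552 to 30169775 had peaks in 8 of 15 genes, among them Zfp27 and Zfp14, and a run at 24081877 to 24587840 in 7 of 12, among them Zfp112. On chromosome 13 (67038594 to 67827000) peaks were seen in 5 of 19, on chromosome 17 (21383707 to 22456689) in 3 of 18, and on chromosome 4 (146449030 to 147849126) in 1 of 12. Genes of a run are similar in sequence, and the sources used here do not give how reads that match several of them were placed. The centres of 434 of 440 peaks (98.6%) lay within the gene they were named for. The 6 others were named for Zfp781 but lay in Gm3055, or were named for Zfp991 but lay in Zfp992, genes picked out here after this was seen, so for them and their copies the gene is uncertain. The centres of 16 peaks of 10 genes lay in another gene too or instead. Without those 10 genes the last-exon difference from other genes was 25.6 percentage points (exact sign-flip permutation test, adjusted p = 0.0104).

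Other C2H2 genes, such as the Zbtb, Klf and Prdm families, had a peak in 57 of 143 cases (39.9%), and 50 of their 269 peaks (18.6%) lay in the last coding exon. By list this share was 5.71% and 8.11% in the THOC5 OE lists, 10.3% and 5.56% in GFP OE, 27.6% and 30.8% in Pi, and 32.3% and 21.6% in Ctrl. In Ctrl these values overlapped those of the Zfp genes, in Pi both lay below them, and in the 4 lists of THOC5 OE and GFP OE each was below each Zfp value. The difference between the families was not tested. Of these genes 3 had peaks in all 8 lists (Glis3, Hivep2 and Zfhx3), against 2 Zfp genes.

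Between THOC5 OE and GFP OE no difference in the place of the peaks of Zfp genes passed the test. With 2 lists against 2 none could pass it. Zfp genes made up 1.94% and 1.42% of the genes with a peak in THOC5 OE, with 32 and 24 genes, against 3.02% and 1.95% in GFP OE, with 43 and 24 genes. The lower GFP OE value lay just above the higher THOC5 OE value. This difference of -0.805 percentage points is a description. The share of peaks of Zfp genes in the last coding exon averaged 25.0 ± 5.77% in THOC5 OE and 28.8 ± 3.31% in GFP OE (SD, n = 2 lists each). The difference of -3.80 percentage points did not pass the two-sided exact permutation test over lists (p = 0.667). It was 0.762 after adjustment over the 8 comparisons between conditions, those of the Zfp share included. The smallest p that 2 lists against 2 allow is 0.333. Without THOC5 OE replicate 2 the difference was 0.282. Of 67 Zfp genes with a peak in these 4 lists, 0 were in both THOC5 OE lists and in neither GFP OE list, where 6.34% of 2509 genes were. There were 2 in both GFP OE lists and in neither THOC5 OE list, where 1.2% of all genes were. These were Zfp715, in intron 1 of 4 in GFP OE replicate 1 (percentile 56.7) and exon 5 of 5 in GFP OE replicate 2 (86.9), and Zfp653, in intron 7 of 8 in GFP OE replicate 1 (20.9) and exon 8 of 9 in GFP OE replicate 2 (36.4). With peaks at or above the median score of each list the counts were 2 for THOC5 OE and 1 for GFP OE. Nothing is read from these counts, since the peaks that chose the genes also make them.

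Between Pi and Ctrl, which differ in medium, no difference in the place of the peaks passed the test either, and with 2 lists against 2 none could. Zfp genes made up 2.27% and 2.25% of the genes with a peak in Pi, against 2.58% and 3.15% in Ctrl, where replicate 2 held the most Zfp genes of all lists, 66, and replicate 1 held 33. The 2 conditions did not overlap, and the difference of -0.606 percentage points is a description. The last-exon share averaged 34.7 ± 2.71% in Pi and 24.3 ± 8.44% in Ctrl (SD, n = 2 lists each), also without overlap, with a difference of 10.3 percentage points (exact permutation test, p = 0.333, adjusted 0.533). It changed sign, to -1.88, when only peaks at or above the median score of each list were kept. Of 105 Zfp genes with a peak in these 4 lists, 2 were in both Pi lists and in neither Ctrl list, where 3.25% of 3384 genes were. There were 10 in both Ctrl lists and in neither Pi list, where 3.63% of all genes were. The direction of these 2 counts turned with lists cut to 2572 peaks each, where they were 4 for Pi and 3 for Ctrl, and with peaks at or above the median score they were 0 and 4. Nothing is read from them either.

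The 2 genes seen in both Pi lists and in neither Ctrl list were Zfp772 and Zfp287, each with its recurrent site in exon 5 of 5, which for Zfp772 includes the 3' UTR in GFP OE replicate 1 and Pi replicate 2. Zfp772 held 1 peak in each list of THOC5 OE, GFP OE and Pi, that is, in every list from osteogenic medium, and 0 in both Ctrl lists. The share of all genes with this pattern is not given here, so nothing is read from it. Its site (chr7:7202996-7204142) had percentiles of 43.0 and 47.8 in the THOC5 OE lists, 39.5 and 39.3 in GFP OE, and 50.6 and 38.6 in Pi. Zfp287 held 1 and 0 peaks in the THOC5 OE lists, 1 and 1 in GFP OE, 1 and 1 in Pi, and 0 and 0 in Ctrl, at percentiles from 38.6 to 50.5. Its recurrent site was seen in 4 lists, and the peak of GFP OE replicate 1 lay in exon 1 of 5 instead. Of the 10 genes on the Ctrl side, the 6 named here had the highest of the lower percentiles of the 2 Ctrl lists. Zfp516, which activates the brown fat gene Ucp1 in mice, was strong in both, at percentiles of 87.7 and 91.3 in exon 3 of 6, and was seen in no other list. Zfp52 (last exon, 68.9 and 71.6) and Zfp40 (last exon, 40.5 and 44.9) were likewise seen in the Ctrl lists alone. Zfp451 (64.4 and 79.6) was also seen in both THOC5 OE lists and in GFP OE replicate 1. Zfp788 (last exon, 15.5 and 45.7) was also seen in GFP OE replicate 1, and Zfp142 (introns, 8.66 and 35.6) in no other list. In Zfp52, Zfp40 and Zfp142 the peaks of the 2 Ctrl lists did not overlap, so these lists shared the gene but no site.

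Zfp131, a BTB-domain zinc finger gene, was another of the 10, outside the 6 and chosen after its values were seen, because its peaks lay at opposite ends of the gene in different lists. In Ctrl replicate 1 (chr13:119789878-119790321, intron 2 of 6 of a transcript, percentile 5.22) and in Ctrl replicate 2 (chr13:119789979-119790394, exon 2 of 7, percentile 42.1) the peak lay near the start of the gene. In THOC5 OE replicate 1 (chr13:119766278-119766751, percentile 65.0) and in GFP OE replicate 1 (chr13:119766403-119766823, percentile 74.3) it lay in the last coding exon, exon 7 of 7, where the predicted gene Gm41077 lies too. Both Ctrl peaks cover the stretch shown here, at chr13:119790243-119790272 on the minus strand, that of Zfp131, with an ATG in capitals. It comes from RefSeq sequence (build GRCm38.p6) around the start of the neighbouring predicted gene Gm46390. The exon edges of Zfp131 were not used here, so it is shown as bases under both peaks and not as an exon.
Zfp131, bases under both Ctrl peaks: ATGgaggctgaagagacgatggaatgcctt
This ATG was picked because, of the runs that begin with an ATG on this strand of the RefSeq stretch used, it opens the longest without a stop codon in frame. That run is 135 bases or 45 codons long.

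**Figure D4:**
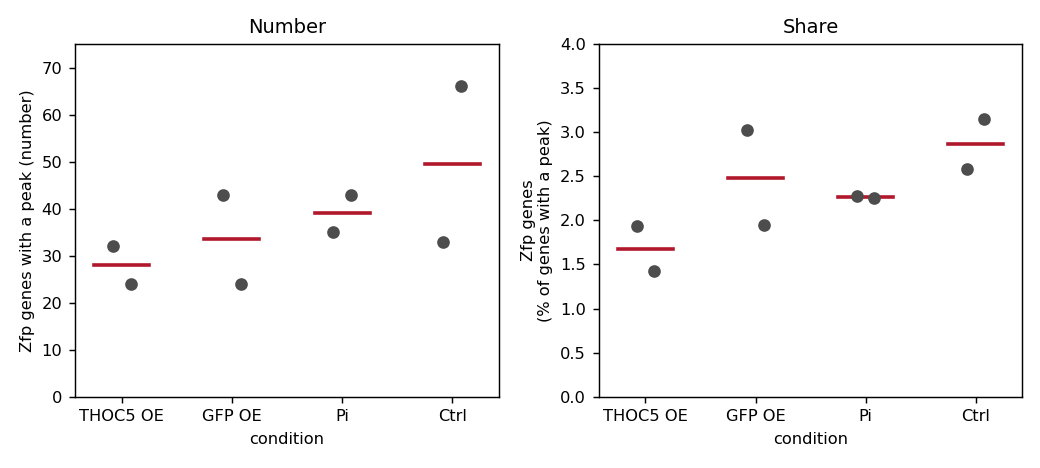
Number of Zfp genes with a peak (left) and their share of all genes with a peak in percent (right) in the 2 lists (points) of each condition (x axis), with the mean as a red line. The number spans 24 to 66 and the share 1.42% to 3.15%, with the highest of both in Ctrl replicate 2.

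GFP overexpression in osteogenic medium, a comparison that shares its lists with the ones above, showed no difference in the place of the peaks past the test. Here too 2 lists against 2 allowed none to pass. Zfp genes made up 2.49 ± 0.758% of the genes with a peak in GFP OE and 2.26 ± 0.0158% in Pi (SD, n = 2 lists each). The difference of 0.226 percentage points, a description, was -0.310 without GFP OE replicate 1. The last-exon share was 28.8 ± 3.31% in GFP OE and 34.7 ± 2.71% in Pi, a difference of -5.86 percentage points (exact permutation test, p = 0.333, adjusted 0.533), which became 5.17 with peaks at or above the median score alone. Of 91 Zfp genes with a peak in these lists, 1 was in both GFP OE lists and in neither Pi list, where 3.65% of 3065 genes were. There were 3 in both Pi lists and in neither GFP OE list, where 6.49% of all genes were. The count on the GFP OE side was 0 with peaks at or above the median score. The one on the GFP OE side was Zfp14, in exon 6 of 6 at percentiles of 31.3 and 29.8. On the Pi side were Zfp217, whose human counterpart is an amplified breast cancer gene (88.3 and 85.7), Zfp335, which is needed by neural progenitors in mice (66.9 and 66.1), and Zfp704 (28.8 and 35.9).

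Set together, in a comparison that again shares its lists with the others, the 4 lists from overexpressing cells, THOC5 OE and GFP OE, had a Zfp share of 2.08 ± 0.672% of genes with a peak, and the 4 without overexpression, Pi and Ctrl, 2.56 ± 0.421% (SD, n = 4 lists each). Growth medium occurs on the second side alone, so medium and overexpression cannot be told apart here. The difference of -0.479 percentage points is again a description. The last-exon share was 26.9 ± 4.42% with overexpression and 29.5 ± 7.86% without (SD, n = 4 lists each), a difference of -2.59 percentage points (exact permutation test, p = 0.571, adjusted 0.762). Of the 126 genes, 0 were in at least 3 of the 4 lists with overexpression and in none without, where 2.62% of 4051 genes were. There were 3 in at least 3 of the 4 lists without overexpression and in none with, where 2.76% were. The 3 were Zfp217, Zfp839 and Zfp704. Zfp217 held 0 peaks in all 4 lists of THOC5 OE and GFP OE, 2 and 1 in Pi, and 1 and 1 in Ctrl. Its sites lay in exon 3 of 7 (chr2:170119507-170120205) and exon 5 of 7 (chr2:170114233-170114975), at percentiles of at least 83.4. Zfp839 was seen in Pi replicate 2 and both Ctrl lists at percentiles from 35.7 to 59.6, and Zfp704 in both Pi lists and in Ctrl replicate 2, where its percentile was 0.574.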

How the data were processed

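The 8 deposited peak lists were annotated with HOMER's annotatePeaks.pl against mm10, per the file headers. Per the submitters' processing notes, FastQC, Bowtie2, MACS2 and SAMtools were used, with no role or version named. The sources used here do not give the peak caller, its thresholds, the use of inputs or the handling of reads with several matches. Each peak carries a score from the authors, whose deposited scale is not stated, and it was used for ranks within a list. Peaks within a list share their width (415 to 553 bp between lists) and all stand on the plus strand, which was therefore ignored. Lists were joined to samples by condition and number in the headers. The 8 inputs were not analysed here, and depth is unknown.

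The gene of a peak was that of the annotated transcript, named through RefSeq (GRCm38.p6, the build of mm10) for 5224 of 5234 transcripts. Python 3.11.15 with pandas 2.3.3 and numpy 2.4.6 was used, with a threshold of 0.05 for adjusted p, and the tests were tried on simulated data. Genes named had peaks in at least 6 lists, were among the 8 with most peaks, led a list by score, lay on 1 side of a comparison (at most 6 by lowest percentile) or were on a list of known roles; others are said to be chosen after seeing values. The genes and lists were chosen with earlier results of these data known.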

Additional observations from a re-analysis of the deposited data

How the results depend on the processing

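The differences of Zfp genes from other genes in last coding exons and in any exon kept their direction and an adjusted p under the threshold under each alternative run, but not their size. The last-exon difference of 25.6 became 13.3 percentage points at or above the median score of each list, 17.9 with equal length, 29.2 with the nearest gene, 32.8 with exon classes only and 47.8 on transcripts of 2 to 6 exons, and that of any exon ran from 24.1 to 33.3. The cut at 6 exons was chosen after the values were seen, so its p-value is not read. The difference in peaks per gene, given with no test, became -0.399 with the nearest gene. Of all values recomputed 220 stayed, 49 moved and 6 changed sign, where a difference was taken to stay with its sign and side of the threshold, whatever its size, and a count within 1.5 times. The last-exon share of THOC5 OE minus GFP OE, for example, ran to -13.7 with equal length. Leaving out each list in turn gave 24.6 to 27.1 percentage points for the last exon, 30.0 to 32.1 for any exon, -0.744 to -0.652 peaks per gene and -4.89 to -2.18 for the score percentile. With peaks at or above the median score of each list, the last-exon difference became -1.88 for Pi minus Ctrl and 5.17 for GFP OE minus Pi. With the nearest gene the Zfp share of GFP OE minus Pi became -0.0281, and with exon classes only the last-exon share with minus without overexpression became 1.51.

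Leaving out lists gave a Zfp share of -1.34 to -0.268 and a last-exon share of -7.88 to 0.282 (positive without THOC5 OE replicate 2) for THOC5 OE minus GFP OE, -0.893 to -0.318 and 4.37 to 16.3 for Pi minus Ctrl, -0.310 (without GFP OE replicate 1) to 0.762 and -8.20 to -3.52 for GFP OE minus Pi, and -0.792 to -0.259 and -6.31 to -0.233 with minus without overexpression. The cause of the sign changes was not tested.

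Counts of genes follow the number of peaks kept. At or above the median score, the Zfp genes numbered 51, with 27 in 1 list, 7 in at least 6 lists, 93 sites and 42 sites in at least 2 lists, and those on 1 side numbered 2 for THOC5 OE and 1 for GFP OE, 0 for Pi and 4 for Ctrl, 0 for GFP OE against Pi, and 1 without overexpression. With each list cut to its 2572 highest scores there were 78 genes, 37 in 1 list, 152 sites, 61 sites in at least 2 lists, 4 genes for Pi and 3 for Ctrl. With the nearest gene the number was 1 for GFP OE against THOC5 OE, 0 for GFP OE against Pi and 9 in at least 6 lists. Leaving out a list gave 111 to 123 genes, 53 to 65 in 1 list, 7 to 11 in at least 6 lists, 194 to 225 sites and 74 to 95 in at least 2 lists. A side left with 1 list counts genes by that list alone, which gave 1 to 9 for THOC5 OE, 3 to 20 for GFP OE, 2 to 15 for Pi, 12 to 35 for Ctrl, 4 to 20 for GFP OE and 4 to 23 for Pi between these 2, 0 to 4 with overexpression and 1 to 5 without.

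No pairing of lists by replicate number was detected, with deviations of same-numbered lists correlated at 0.0588, 0.0336 and -0.0724 over 4051 genes. These values cannot exclude a pairing in the experiment. With the replicate block the differences stayed as they were (-0.805, -0.606 and 0.226 for the Zfp share, -3.80, 10.3 and -5.86 for the last-exon share of THOC5 OE minus GFP OE, Pi minus Ctrl and GFP OE minus Pi). The exact permutation test within the block gave p = 0.5 for each last-exon share, the smallest the block allows. Last exons by coordinates and counts of fingers per protein were not run, since no genome or protein table was used here. Few peaks per list and the unknown depth limit every share.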

Other observations

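A few Zfp genes, chosen after their values were seen, carried peaks that the deposited annotation placed in the promoter class, at the transcription start, which were outside the count of peaks inside genes. Zfp277 and Zfp708 each held such peaks in 5 lists, namely both THOC5 OE lists, GFP OE replicate 1, Pi replicate 2 and Ctrl replicate 2, and neither had one in GFP OE replicate 2, Pi replicate 1 or Ctrl replicate 1. The start of Zfp708 lies where the gene overlaps Rslcan18. Zfp689 held one in Pi replicate 2 and Ctrl replicate 2, and Zfp384 and Zfp871 held one each in Ctrl replicate 2. The 3 lists without a peak of this class in Zfp277 and Zfp708 were the shortest, with 2572, 2666 and 2603 peaks.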
